A study of Mus musculus with 2 samples.

Results

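The 10 genes described here store iron, carry it into and out of cells, or put it to use in haemoglobin. Their choice was by name, with no measured value in the rule, but earlier results of these data were known. They came from 19042 annotated genes that had at least 1 read in either library. They are the ferritin chains Fth1 and Ftl1, the transferrin gene Trf, the transferrin receptor Tfrc, the iron exporter Slc40a1 (ferroportin), the α-globins Hba-a1 and Hba-a2, the β-globins Hbb-bs and Hbb-bt, and Alas2, the erythroid form of the first enzyme of haem synthesis. All 10 were read in both libraries.

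In build mm10, Fth1 lies on chromosome 19 (9980598 to 9985098, plus strand) and Ftl1 on chromosome 7 (45457944 to 45459884, minus strand). Trf lies on chromosome 9 (103204001 to 103230444, minus strand), Tfrc on chromosome 16 (32608920 to 32632794, plus strand) and Slc40a1 on chromosome 1 (45908068 to 45926523, minus strand). The α-globins lie close together on chromosome 11, Hba-a1 at 32283511 to 32284465 and Hba-a2 at 32296489 to 32297298, both on the plus strand. The β-globins lie close together on chromosome 7, Hbb-bt at 103812524 to 103813996 and Hbb-bs at 103826534 to 103828096, both on the minus strand. Alas2 lies on chromosome X (150547375 to 150570638, plus strand).

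The libraries came from hippocampus, labelled as a layer of that tissue, of female B6CASTF1/J mice at 14 days of age. These hybrid mice are a first-generation cross between C57BL/6J and CAST/EiJ, and the tables hold no allele counts. There was 1 group with 2 biological replicates and no second condition, and each replicate was 1 library from a pool of 3 animals and 2 µg of RNA. The sample characteristics number 6 different animals, although a description line shared by both libraries repeats the numbers of the first pool. Replicate 1 held 1168366 reads and replicate 2 held 888704, so that 1 read was worth 0.856 and 1.13 CPM (reads scaled to a common library size). In long-read sequencing 1 read stands for 1 cDNA (a DNA copy of an RNA), which need not be full length. CPM were therefore set side by side between genes without division by length, and they are not counts of RNA molecules. The ratio between the libraries followed transcript length, as reported with the comparison of the libraries. The order of short ferritin and globin transcripts against the longer Trf, Slc40a1 and Tfrc may therefore differ between the libraries with length. The cause of this trend was not tested, and no correction for it was made to the levels. Tests between the libraries took reads as the unit and therefore compared these libraries only, and all intervals cover counting error alone.

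Ferritin is a hollow shell of heavy and light chains in which iron is kept in a safe mineral form. Transferrin carries iron outside cells, its receptor brings it in, and ferroportin is the exporter through which it leaves. When cells are short of iron, iron regulatory proteins bind a hairpin in the messenger RNA called the iron-responsive element: in the 5′ untranslated region (UTR) it holds back translation, as in ferritin, and in the 3′ UTR it protects the messenger from decay, as in Tfrc. In brain, transferrin is made mainly by oligodendrocytes and the choroid plexus, whereas globins and Alas2 are best known from red blood cells and their precursors.

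The elements that tie these genes together were printed from the GENCODE M21 transcripts (build mm10) as windows of at most 30 bases. They were found as a C, any 5 bases (NNNNN), the loop CAGTGN, and then 5 bases that pair, G with U allowed, with the NNNNN before the loop. Only the sense strand was searched, and capitals mark the bulged C and the loop.
Fth1: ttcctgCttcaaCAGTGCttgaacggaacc
Ftl1: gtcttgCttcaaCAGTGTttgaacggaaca
Slc40a1: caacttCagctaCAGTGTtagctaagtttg
Alas2: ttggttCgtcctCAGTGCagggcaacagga
Tfrc element 1: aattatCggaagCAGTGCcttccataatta
Tfrc element 2: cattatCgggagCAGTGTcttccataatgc
Tfrc element 3: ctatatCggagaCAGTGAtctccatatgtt
Tfrc element 4: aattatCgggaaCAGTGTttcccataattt

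The elements of Fth1 (chr19:9982732-9982761, plus strand), Ftl1 (chr7:45459778-45459807, minus strand) and Slc40a1 (chr1:45925464-45925493, minus strand) lay in the 5′ UTR, with the bulged C at bases 93, 84 and 96 of the leading transcript. The Alas2 element began at base 90 of its leading transcript, also in the 5′ UTR on chromosome X, and its window crossed the first exon junction. Tfrc held 4 matches in its last exon, in the 3′ UTR. Their bulged C lay at bases 3321, 3700, 3765 and 3812 of the leading transcript (the first at chr16:32631219-32631248, plus strand). The pattern requires the loop CAGTGN, so an element with another loop would be missed. The 4 are matches and need not be every element of the gene. No match was found in the leading transcripts of Trf or of the 4 globins. Among 58616 protein-coding transcripts of the annotation, 49 (0.0836%) held the pattern in their first 200 bases. Of the 32076 that reached 1600 bases, 226 (0.705%) held it in their last 1600 bases. The only 1 with 4 or more matches there was the leading Tfrc transcript itself, whose first match began 1570 bases from its end. The window is just long enough to hold its 4 matches, so this count depends on the window length. Transcripts of the members were counted in both shares, so these are not a background apart from the members. A match is a description of letters and does not show that a protein bound.

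Most reads came from models that include these elements. For Fth1, 3285 of 3288 reads in replicate 1 and all 2009 in replicate 2 were on models holding the element. For Ftl1 the counts were 601 of 631 (95.2%) and 318 of 332 (95.8%), and the remaining 30 and 14 reads were on models that start downstream of the element. For Slc40a1, 34 of 39 reads (87.2%) and 41 of 44 (93.2%) were on such models, although 5 of its 8 annotated transcripts lack the pattern. All 21 and 40 Tfrc reads were on models with all 4 matches, because every Tfrc model in these libraries kept the end of the last exon. Alas2 had 8 of 9 and 11 of 12 reads on models with the element. A model annotated in GENCODE is drawn with its annotated ends, so these shares describe models and not the exact 5′ end of each read.

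Fth1 was by far the highest of the 10 genes. The heavy chain that it encodes carries the activity that oxidises iron for storage. Its 3288 reads in replicate 1 and 2009 in replicate 2 gave 2814 and 2261 CPM (mean 2537 ± 391, SD, n = 2), and the gene ranked 10 among all annotated genes by mean CPM. Ftl1, the light chain that helps the mineral core form, had 631 and 332 reads, or 540.1 and 373.6 CPM (457 ± 118), and ranked 245. Reads of Fth1 thus outnumbered those of Ftl1 by 5.21 to 1 in replicate 1 and by 6.05 to 1 in replicate 2. The ferritin pair took 0.335% and 0.263% of all reads.

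The α-globin Hba-a1 came next with 290.1 and 178.9 CPM (339 and 159 reads). Trf followed with 130.1 and 175.5 CPM (152 and 156 reads), and the β-globin Hbb-bs with 165 and 106 CPM (193 and 94 reads). The Trf and Hbb-bs ranges overlapped between the libraries, so these neighbours could not be put in order. Hba-a2 had 82.2 and 48.4 CPM (96 and 43 reads). Slc40a1 stood at 33.4 and 49.5 CPM from 39 and 44 reads, and Tfrc at 18.0 and 45.0 CPM from 21 and 40 reads. Hbb-bt had 34.2 and 11.3 CPM (40 and 10 reads), and Alas2 was lowest with 7.70 and 13.5 CPM (9 and 12 reads). From Hba-a2 down to Alas2 each gene overlapped its neighbour in the order of levels, whereas Fth1, Ftl1 and Hbb-bs did not overlap the next gene below them. Hba-a1 and Trf were within counting error of each other in replicate 2, so their order was not resolved there.

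**Figure D1:**
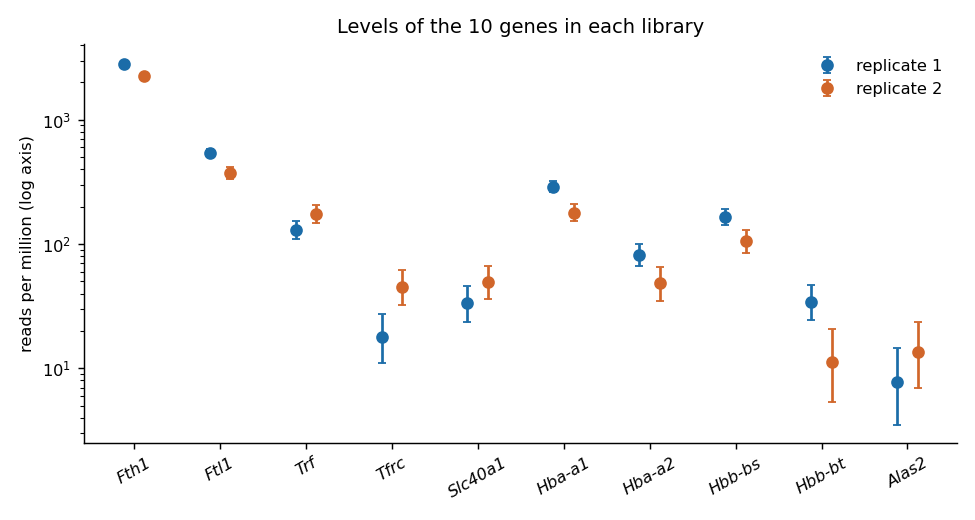
CPM (log axis) of the 10 genes in each library; points are libraries and bars are exact Poisson 95% intervals, which cover counting error only. Fth1 lies at a mean of 2537 CPM and Alas2 at 10.6, and the ferritin and globin points of replicate 1 sit above those of replicate 2.

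By role, the ferritin pair summed to 3354 and 2634 CPM (mean 2994 ± 509, n = 2) and the 4 globins to 571.7 and 344.3 CPM (458 ± 161). Trf, Tfrc and Slc40a1 together summed to 181 and 270.1 CPM (226 ± 62.7). The ferritin and globin sums were higher in replicate 1 and the sum of the transport genes in replicate 2. α-Globin reads outnumbered β-globin reads by 1.87 to 1 and 1.94 to 1, so the ratio of the chains was close in the libraries while their summed level differed.

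The comparison of the libraries placed 7 of the 10 genes past the threshold (exact binomial test of the split of reads, Benjamini-Hochberg adjusted over 11681 genes with at least 10 reads). Of these, 6 were higher in replicate 1 and 1 was higher in replicate 2. Over all genes tested 10.8% were called, 5.03% higher in replicate 1 and 5.81% higher in replicate 2. The median log2 ratio of replicate 2 over replicate 1, with 1 CPM added, was -0.42 over the members and 0.11 over all genes. The ratio also followed transcript length across the whole annotation, from a median of -0.65 in 498 genes with leading transcripts of 500 to 1000 nt to 0.33 in 1184 genes of 4000 to 8000 nt. Both ferritins and all 4 globins have leading transcripts of 554 to 968 nt, and Trf, Slc40a1 and Tfrc of 2571 to 4890 nt.

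Fth1 was 1.24 times and Ftl1 1.45 times as high in replicate 1 (log2 ratio -0.32 and -0.53). Their adjusted p-values in the exact binomial test were 1.2e-12 and 2.2e-06. Once the trend with length had been removed, Ftl1 was no longer called (-0.05, adjusted p = 1). Fth1 changed direction and was higher in replicate 2 by 0.18 on the log2 scale (adjusted p = 0.00063), and it was then the single member called, where 3.45% of all genes were called, 1.8% higher in replicate 1 and 1.65% higher in replicate 2.

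The globins moved the same way in the raw split. Hba-a1 was 1.62 times, Hba-a2 1.70 times, Hbb-bs 1.56 times and Hbb-bt 3.04 times as high in replicate 1. Adjusted p-values of the exact binomial test were 1.5e-05, 0.040, 0.0062 and 0.014 in that order. Their log2 ratios after removal of the length trend were -0.08, -0.10, -0.01 and -0.92, and none was called. The libraries and the pools of animals cannot be told apart, since each library was 1 pool.

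Tfrc, which brings transferrin-bound iron into cells, was higher in replicate 2 (18.0 against 45.0 CPM, log2 ratio 1.28, exact binomial adjusted p = 0.010). It was not called after removal of the trend (0.97, adjusted p = 0.17) or on annotated transcripts alone, where the log2 ratio was 1.37 from 11 and 23 reads (adjusted p = 0.058). Trf had a log2 ratio of 0.43 (adjusted p = 0.079), Slc40a1 of 0.56 (adjusted p = 0.35) and Alas2 of 0.74 (adjusted p = 0.64), and these did not pass the exact binomial test.

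**Figure D2:**
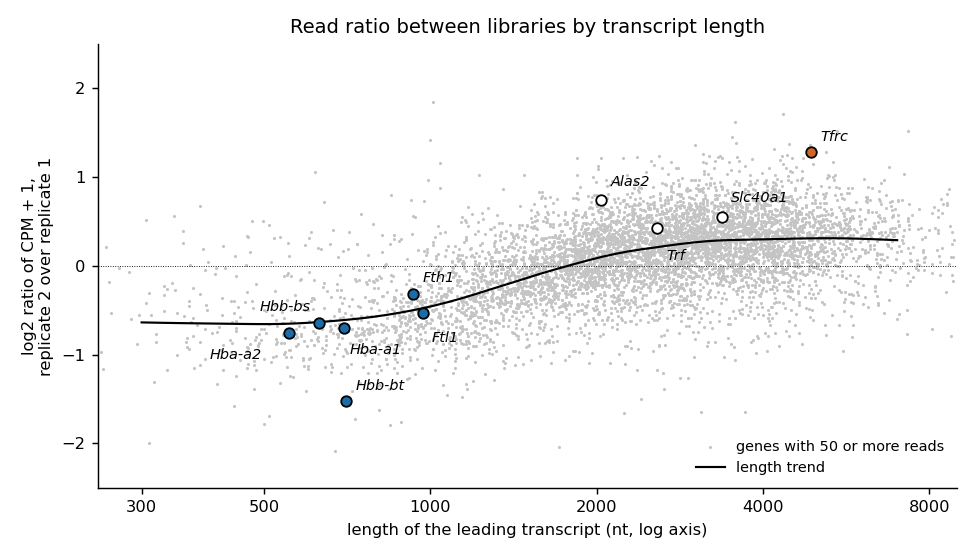
Log2 ratio of CPM plus 1 between replicate 2 and replicate 1 against the length of the leading transcript in nt (log axis); grey points are genes with 50 or more reads, the line is the length trend, and named points are the 10 genes (blue called higher in replicate 1, orange called higher in replicate 2, white not called). The short ferritin and globin transcripts lie below 0 with the trend, and Hbb-bt and Tfrc lie farthest from it.

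Other scalings moved all genes together. Totals scaled by the trimmed mean of M-values (TMM) shifted the median log2 ratio of all genes by -0.12 and median-ratio size factors by -0.11. The 7 calls on the members and their directions were the same under both. TMM scaling called 9.74% of all genes, 6.78% higher in replicate 1 and 2.96% higher in replicate 2, and the size factors called 9.8%, 6.73% and 3.07%. The split of calls over all genes therefore went from 587 and 679 to 792 and 346 under TMM and to 786 and 359 under the size factors. The 7 members were also called with totals without spike-ins (10.8% of all genes), with a minimum of 5 reads (8.9%) or 20 reads (13.7%), with Ftl1 and Ftl1-ps1 merged (10.8%) and with the two-sided p summed over less likely outcomes (11.5%). On annotated transcripts alone 6 of these 7 were called, the exception being Tfrc, whose log2 ratio there was no smaller, against 11.5% of all genes. With globin copies merged 5 of 8 units were called, against 10.8%.

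Marker levels of other cell types differed between the libraries as well. The 6 choroid plexus markers summed to 4654 CPM in replicate 1 and 6.75 CPM in replicate 2; 5 of the 6 were tested and all 5 were called higher in replicate 1, led by Ttr with 5325 and 5 reads. Of 6 oligodendrocyte markers tested 3 were called higher in replicate 2, with sums of 4824 and 6468 CPM, and the astrocyte, neuron, microglia, endothelial and macrophage sums were 1.58, 1.18, 1.21, 1.09 and 1.03 times as high in replicate 2, with 4 of 5, 4 of 5, 1 of 6, 0 of 5 and 0 of 1 tested markers called higher there (for the last pair, 1 and 0 had an unadjusted p under 0.05). The share of all genes called higher in replicate 2 was 5.81%, and 5.03% were called higher in replicate 1. With the length trend removed, 2 oligodendrocyte, 3 astrocyte, 1 neuron and 1 microglia markers were called higher in replicate 2 and the 5 choroid plexus markers higher in replicate 1. Of all genes, 1.65% were then called higher in replicate 2 and 1.8% higher in replicate 1. Under TMM scaling the neuron count was 2, where 2.96% of all genes were called higher in replicate 2. Neuron markers summed to 4350 and 5149 CPM. Trf is made by both oligodendrocytes and choroid plexus, and the part of either in its level was not tested. In bulk tissue fewer cells of a type and less RNA per cell cannot be told apart.

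Most markers of the red cell lineage had no read, although Bpgm reached 169 and 159 CPM. Of 9 erythroid markers in the annotation, 6 had no read in either library, among them Slc4a1, the anion exchanger of the red cell membrane, and the erythroid transcription factors Klf1 and Gata1. A count of 0 allows up to 3 reads, or 2.57 CPM in replicate 1 and 3.38 CPM in replicate 2. Bpgm, the enzyme of 2,3-bisphosphoglycerate synthesis, had 198 and 141 reads and Tfr2, a second transferrin receptor, 16 and 12, and neither was called (0 of 2 with an unadjusted p under 0.05). The 4 globins over the same libraries had 668 and 306 reads.

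Nearly every read of these genes lay on an annotated transcript. Over the 10 genes, 4710 of 4808 reads (98.0%, exact binomial interval 97.5 to 98.3%) in replicate 1 and 2836 of 2899 (97.8%, 97.2 to 98.3%) in replicate 2 did so. Over all annotated genes the shares were 71.8% and 71.5%. Fth1 alone gives most reads of the members, so these shares follow it. There were 75 different models, 22 of them annotated, and 53 unannotated models of which 11 were found in both libraries and 35 rested on 1 read.

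**Figure D3:**
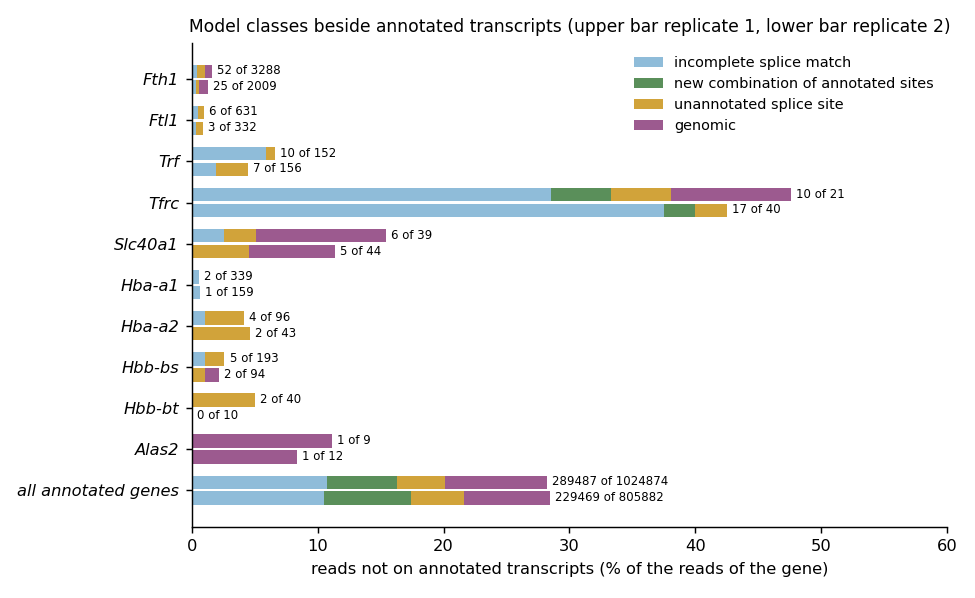
Reads outside annotated transcripts as a percentage of each gene's reads, stacked by model class; the upper bar of each gene is replicate 1 and the lower bar replicate 2, and the numbers give those reads out of all reads of the gene. Tfrc stands out with 10 of 21 and 17 of 40 reads, while Fth1, Ftl1 and Hba-a1 lie below 2%.

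The leading Fth1 transcript, of 4 exons and 929 nt, carried 3229 of 3288 reads (98.2%) and 1979 of 2009 (98.5%). Some of the next models kept introns. A 1-exon model that spans all 3 introns unspliced had 17 and 14 reads, a 2-exon model that keeps introns 1 and 2 had 13 and 6, and an annotated transcript that keeps intron 1 had 4 and 4. In all, 36 reads (1.09%, exact binomial interval 0.768 to 1.51%) and 24 reads (1.19%, 0.767 to 1.77%) spanned at least 1 whole intron of Fth1. For the globins, Trf and Slc40a1 this count was 0. The exact binomial interval then reached up to 1.08% and 2.29% for Hba-a1, the deepest of them.

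A further Fth1 form used a donor site 4 nt downstream of the annotated end of exon 2 (chromosome 19, 9984331 in place of 9984327), with 18 and 4 reads. Its splice sites were the same in both libraries. Single reads ended exons 1 and 3 of Fth1 at the same distance of 4 nt, 1 in replicate 2 and 1 in replicate 1. The donors are shown because each holds a second GT at that distance; the first 12 bases are the annotated end of the exon, and capitals mark the 4 added bases.
Fth1 exon 1: tatctgtctatgGTGAgtgcgg
Fth1 exon 2: caggatataaagGTAAgtagat
Fth1 exon 3: aatgatccccacGTGAgtatcg

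The first exon of Hbb-bs ended 4 nt later in the same way in 3 and 1 reads, and that of Hbb-bt in 1 and 0 reads. Fth1 thus had this shift at all 3 of its internal donors, mostly at exon 2, and the β-globins at 1 each. The files do not say how reads were placed at neighbouring donors.

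The leading Ftl1 transcript (4 exons, 968 nt) carried 597 of 631 reads (94.6%) and 316 of 332 (95.2%). An annotated transcript that starts inside the first intron, and so lacks the iron-responsive element, had 18 and 8 reads, and a further pair of annotated transcripts had 5 and 2 reads each. A small annotated miRNA locus, Gm22133, lies within the last exon of Ftl1 on the same strand and had 4 and 1 reads of its own.

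The leading Trf transcript, with 17 exons and 2571 nt, carried 141 of 152 reads (92.8%) and 149 of 156 (95.5%). The next model was an incomplete splice match of 15 exons that starts in exon 3, with 7 and 2 reads. A read-through gene over the same exons, Gm20425, had no read in either library. The leading Slc40a1 transcript (8 exons, 3370 nt) had 33 of 39 and 39 of 44 reads. A 271-nt model inside its last exon, matched between the libraries by nearby ends, had 4 and 3.

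Tfrc was the gene with the lowest share on annotated transcripts, 52.4% (11 of 21 reads, exact binomial interval 29.8 to 74.3%) and 57.5% (23 of 40, 40.9 to 73.0%). Its incomplete splice matches all ended 4 nt before the end of the leading transcript and began in different exons. A model of the last exon alone had 0 and 6 reads, one of the last 2 exons 3 and 0, one of the last 4 exons 0 and 3, and one of the last 7 exons 0 and 3. Models that reach exon 1 of the 19-exon leading Tfrc transcript took 12 of 21 reads (57.1%) and 24 of 40 (60%, 43.3 to 75.1%), against 94.1% and 98.1% for Trf. Tfrc also had the longest leading transcript of the 10 genes, 4890 nt. Unannotated loci on the opposite strand overlapped the gene with 5 and 3 reads.

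**Figure D4:**
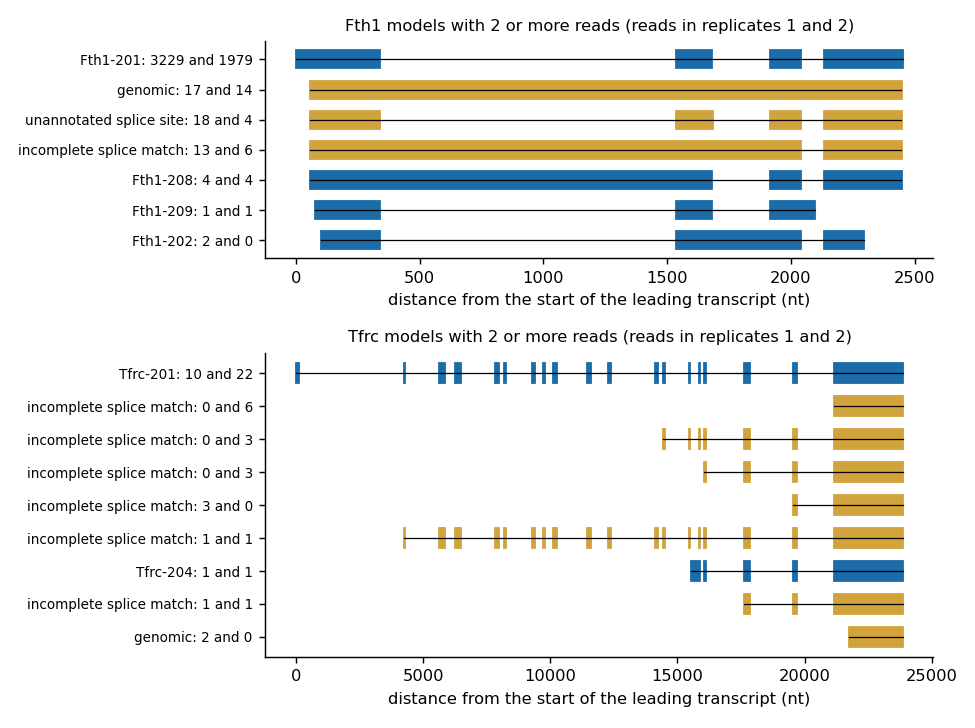
Exon structure of Fth1 and Tfrc models with 2 or more reads, as distance in nt from the start of the leading transcript; boxes are exons, lines are introns, blue is annotated and yellow unannotated, and the labels give the reads in replicates 1 and 2. Fth1 models differ by unspliced introns, by an exon 2 that ends 4 nt later, or by an end in a longer exon 3. The unannotated Tfrc models share the last exon or its end and lack exons at the start.

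The leading Alas2 transcript had 6 and 10 reads and a second annotated one had 2 and 1. The second has a later start of exon 3, and single 1-exon reads lay in the gene body in each library. The share of the leading transcript was tested in the 8 members that reached 20 reads per library, and none passed the threshold (Fisher's exact test, 0 of 8 with an unadjusted p under 0.05, smallest unadjusted p = 0.34). Over 6456 genes tested 0.713% were called.

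Hba-a1 and Hba-a2 are nearly the same sequence, so their reads can be told apart at few places. Over 538 aligned nt of their leading transcripts there was 1 difference, C577T (the Hba-a1 base, its position in the leading Hba-a1 transcript counted from 1 at the 5′ end, then the Hba-a2 base). It lies at the third base of codon 127, and the capital marks it below. The alignment runs from base 162 to the last base, 699, of the Hba-a1 transcript and over bases 1 to 538 of the 554 of the Hba-a2 transcript.
Hba-a1: gcatgcctctctggaCaaattccttgcctc
Hba-a2: gcatgcctctctggaTaaattccttgcctc

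The leading transcripts of Hbb-bs and Hbb-bt shared 93.6% identity over 609 aligned nt. They differed by 37 substitutions and 2 gap bases. Of the substitutions, 1 lay in the coding sequence, C470T (position in the leading Hbb-bs transcript), at the third base of codon 139, while 8 lay in the 5′ UTR and 28 in the 3′ UTR. Unlike the α-globins, the β-globins therefore have many distinguishing bases, nearly all of them outside the coding part.
Hbb-bs: ggtggctggagtggcCgctgccctggctca
Hbb-bt: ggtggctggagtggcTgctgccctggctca

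Of α-globin reads, Hba-a1 received 339 of 435 (77.9%, exact binomial interval 73.7 to 81.7%) in replicate 1 and 159 of 202 (78.7%, 72.4 to 84.1%) in replicate 2. The share did not differ between the libraries beyond counting error (Fisher's exact test, adjusted p = 0.92 over both pairs). Hbb-bs received 193 of 233 β-globin reads (82.8%, 77.4 to 87.4%) and 94 of 104 (90.4%, 83.0 to 95.3%), with an adjusted p of 0.19 in Fisher's exact test. With the copies added together, α-globin had 372 and 227 CPM and β-globin 199 and 117 CPM, and both were called higher in replicate 1 (log2 ratio -0.71 and -0.76, exact binomial adjusted p = 2.6e-07 and 0.00015). The sources used here do not say how reads that match both copies were assigned, and reads of CAST/EiJ alleles were placed on the C57BL/6J sequence of mm10.

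Ftl1 has a close copy that was also read. Ftl1-ps1 is a gene on chromosome 13 (74399694 to 74407346, plus strand) that the annotation classes as protein-coding. Over all its models it had 484 and 288 reads, against 631 and 332 for Ftl1. Ftl1 thus held 56.6% (53.6 to 59.5%) and 53.5% (49.5 to 57.5%) of the reads of both. The Ftl1-ps1 transcript compared here has 1 exon and 938 nt. It matched the leading Ftl1 transcript at 99.6% over 910 nt and carries the same iron-responsive element. There were 4 differences, A196G in the 5′ UTR, G721A and G757A at the third base of codons 156 and 168, and A817G in the 3′ UTR (positions in the leading Ftl1 transcript). The coding differences are shown with the changed base in capitals.
Ftl1 codon 156: cctccgcagggtggcGgggccacaaccagc
Ftl1-ps1 codon 156: cctccgcagggtggcAgggccacaaccagc
Ftl1 codon 168: tggcgcgccccagggGtctctgggcgagta
Ftl1-ps1 codon 168: tggcgcgccccagggAtctctgggcgagta

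Because the 2 loci differ at 4 of 910 bases, reads counted as Ftl1 may come from Ftl1-ps1 and the reverse, and the origin of each read was not tested. Added together they had 954 and 698 CPM (1115 and 620 reads, log2 ratio -0.45, exact binomial adjusted p = 2.5e-08). Fth1 reads then outnumbered light-chain reads by 2.95 to 1 and 3.24 to 1. Of 19 annotated copies of Ftl1 with at least 80% identity, 17 had no read, and Ftl2-ps had 0 and 3. The 3 copies of Fth1 found at that limit, with 80.5 to 90.5% identity, had no read.

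**Figure D5:**
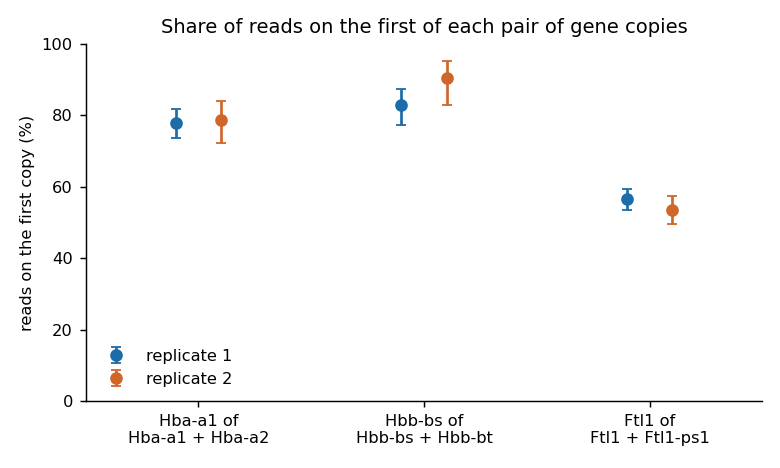
Share of reads on the first gene of each pair of near-identical copies in percent; points are libraries and bars are exact binomial 95% intervals. The α-globin and ferritin light-chain shares overlap between the libraries near 78% and 55%, and the Hbb-bs intervals also overlap.

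Some Hba-a2 models ran in from a neighbouring globin gene. Models of 5 or 6 exons with 3 and 2 reads began at 32286965 of chromosome 11, the annotated start of the θ-globin gene Hbq1b. They used its first 2 exons and ended over the 3 exons of Hba-a2, whose leading transcript starts at 32296489. Hbq1b had no read under its own name. One 6-exon chain was found in both libraries, with 2 and 1 reads. It had a further exon between the genes, at -1532 to -1412 nt from the start of the leading Hba-a2 transcript. Its next exon began at -792 nt and ran into exon 1 of Hba-a2, so the genes were not joined directly in this chain. For Slc40a1, on the minus strand, a 1-read model of replicate 2 started at the annotated exon 1 and ended at 45857332 of chromosome 1, downstream of the gene.

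Of 28 other genes of iron regulation and transport, 17 were tested and 1 was called, where 10.8% of all genes were. It was Ncoa4, the receptor that delivers ferritin for breakdown, with 145 and 163 reads (log2 ratio 0.56, exact binomial adjusted p = 0.011). It was not called with the length trend removed (adjusted p = 0.59) or under TMM scaling. The highest levels were those of Slc48a1, a haem transporter (463 and 338 reads, 388 ± 11.3 CPM), Pcbp1, an iron chaperone (234 and 167 reads, 194 ± 8.74 CPM), and Ncoa4 (154 ± 41.9 CPM). Hamp, which encodes the iron hormone hepcidin, Hjv (named Hfe2 in the files), Ftmt (mitochondrial ferritin), Hmox1 (the inducible haem oxygenase) and Hpx (the haem-binding hemopexin) had no read in either library. The median log2 ratio of the tested genes was -0.02, beside 0.11 over all genes.

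All 8 genes of haem synthesis were tested and none was called by the exact binomial test, beside 10.8% of all genes (1 of 8 with an unadjusted p under 0.05), though Alad passed under TMM scaling (72 and 31 reads, adjusted p = 0.070 with library totals). Alas1, the form of the first enzyme found in all tissues, had 169 and 140 reads (151 ± 9.11 CPM) against 9 and 12 for Alas2. Fech, which inserts the iron, had 92.5 ± 6.09 CPM and Urod 57.7 ± 11.6 CPM. Of 9 other globin genes, the embryonic Hba-x, Hbb-bh1 and Hbb-y, and Hbb-bh2 and Hbq1b, had no read. Cygb (cytoglobin) had 71 and 80 reads (75.4 ± 20.7 CPM), Ngb (neuroglobin) 7 and 5 and Hbq1a 1 and 1, and neither of the 2 tested was called (1 with an unadjusted p under 0.05).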

How the data were processed

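Both libraries are long-read libraries of total RNA with ERCC and SIRV spike-ins, per the labels. The authors deposited 1 table of raw read counts for each library, in which every row is a transcript model on mm10. Models are GENCODE M21 transcripts or, with TALON as their named source in the annotation file, additions built from that library, per the file headers. The sources used here do not give the aligner, the read filters or the way reads were divided between copies. Model lengths and exon coordinates are those of the files. Unannotated models were matched between the libraries by their introns, or by nearby ends if they had 1 exon. A matched model is given with the ends of the library with more reads.

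Reads of all models under 1 gene identifier were summed, and CPM computed over all reads. The read split of each gene with at least 10 reads was tested against the library totals by a two-sided exact binomial test (the smaller tail doubled), and copy and leading transcript shares (at least 20 reads in each library) by Fisher's exact test, with Benjamini-Hochberg adjustment over all genes or both pairs and a threshold of 0.05. This definition of the two-sided p was chosen over the sum of less likely outcomes after both counts of calls had been seen. Log2 ratios used an added 1 CPM. The length trend is a lowess curve (fraction 0.3) over genes with at least 50 reads. Poisson and Clopper-Pearson intervals are exact at 95%, and a count of 0 allows 3 reads. Copies were found with BLAST+ 2.17.0 in the GENCODE transcripts, at 80% identity over 25% of the query. R 4.3.3, edgeR 4.0.16 (TMM), DESeq2 1.42.0 (size factors), Python 3.11.15, scipy 1.17.1, statsmodels 0.14.6 and matplotlib 3.10.9 were used, and the tests were tested on simulated data.

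The members and lists were chosen with earlier results of these data known. Named were all 10 members, their models with at least 5 reads in a library or else the leading one, and from each other list the genes past the test, those with no read and the 3 with the highest mean CPM. Marker lists are given as sums and counts, with names for some; a few marker genes are not reported here. Models with fewer reads, Alad, and the copies were named after their values were seen. The erythroid marker Ahsp and protein sequences were not analysed here.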

Additional observations from a re-analysis of the deposited data

How the results depend on the processing

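No paired analysis was possible because there was 1 group and the libraries are its only replicates. The count of 7 members called was 7 under TMM-scaled totals, median-ratio size factors, totals without spike-ins, minimums of 5 or 20 reads, Ftl1 merged with Ftl1-ps1, and the two-sided p summed over less likely outcomes, which called 1342 genes in place of 1266 overall (the last 2 were chosen after seeing the data). Of all genes, 10.8% were called in the main setting and from 8.9 to 13.7% in these others. The count of members was 6 on annotated transcripts only (11.5% of all genes) and 5 of 8 units with globin copies merged (10.8%). It was 1 with the length trend removed (3.45%), where Fth1 turned to 0.18. Annotated share of member reads was 97.9%, and 98.7% with incomplete splice matches counted as annotated and 98.5% without genomic models. Leading transcript use gave 0 calls under all 4 alternatives. These were minimums of 10 reads (9 members tested) and 50 reads (5), annotated transcripts only (7), and models with 2 or more exons only (7). With 1 library left out in turn, the ferritin pair ranged from 2634 to 3354 CPM, the transferrin, receptor and ferroportin sum from 181 to 270.1, the globins from 344.3 to 571.7, Alas2 from 7.70 to 13.5, the annotated share from 97.8 to 98.0%, the Hba-a1 share from 77.9 to 78.7% and the Hbb-bs share from 82.8 to 90.4%. The read split could not be tested with 1 library left out. Depth limits Tfrc, Slc40a1, Hbb-bt and Alas2, each with at most 44 reads in a library.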
